A study of Homo sapiens with 8 samples.

Results

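Interleukin 32 (IL32, ENSG00000008517) was followed over 8 RNA-seq libraries of 2D human intestinal epithelial cells (hIECs). It is 1 of the 60558 genes in the files and 1 of the 14206 that reached 1 FPKM in 2 or more libraries and so entered the fit. FPKM is a fragment count that is divided by the length of the transcript in kilobases and by the size of the library. IL32 was selected on its own measured cytokine and PM10 changes in these libraries, so its values are given as a description and with no test. The cells were derived from H9, 1 human embryonic stem cell line that is labelled in all samples, and the sample labels give a treatment of 10 days for every group. Each of the 4 groups had 2 libraries. Normal hIECs received neither agent. Normal hIECs with PM10 received 100 µg/ml of PM10, particulate matter of the coarse size class, for the last 7 days. Inflamed hIECs were kept for 10 days with IFNγ and TNFα, each at 50 ng/ml. Inflamed hIECs with PM10 received both cytokines and, for the last 7 days, PM10. The labels do not say that the libraries of a group came from separate cultures, so the spread between them may be technical.

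IL32 is a cytokine that was first described as a transcript of activated natural killer and T cells and that epithelial cells, fibroblasts and monocytes also make. IFNγ acts through a receptor coupled to JAK kinases, TNFα acts through its receptors and NF-κB, and both are known inducers of IL32 in epithelial cells. The protein is made as several splice forms, is found inside cells as well as outside them, has no agreed receptor and is known to raise TNF, IL-1β, IL-6 and CXCL8 in myeloid cells. Its level is known to be raised in the inflamed intestinal mucosa.

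In GRCh38 with GENCODE release 44, IL32 lies on the plus strand of chromosome 16, from 3065297 to 3082192. The annotation gives it 35 transcripts, 30 of them protein-coding, with 2 to 8 exons and 447 to 1381 exonic bases. Of these transcripts, 34 end by 3069819 and 1 runs on to the far end of the gene. The gene-level FPKM does not tell these splice forms apart. A small nuclear RNA pseudogene on the same strand, RNU1-125P, lies in exons of 17 IL32 transcripts and was listed at 0 in all 8 libraries. The long noncoding RNA ENSG00000262370 on the opposite strand shares no exonic base with IL32 and was also listed at 0 in all 8.

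RefSeq gives IL32 2 start sites, at 3065403 and 3065784. The window from 250 bases before to 50 after each start was searched on both strands for 5 motifs of the factors through which inflammatory signals are known to act. The following run of 144 bases of GRCh38.p14, plus strand, precedes the first annotated start, with the cAMP response element TGACGTCA in capitals. The run of 30 bases that follows it directly holds the match to the NF-κB consensus, in capitals, on both strands in overlapping positions.
IL32 upstream, chr16:3065153-3065296: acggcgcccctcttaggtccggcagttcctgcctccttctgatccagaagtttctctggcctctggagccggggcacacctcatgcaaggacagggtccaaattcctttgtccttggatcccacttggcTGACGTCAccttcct
IL32 NF-κB match, chr16:3065297-3065326: gtactcaGGGAGTTTCCCcagccagctgtc
The NF-κB match begins 99 bases before the first RefSeq start, and 11.27% of the 35116 RefSeq windows of the same length hold such a match. The cAMP response element begins 121 bases before that start, and 1.85% of windows hold one. No match to the interferon-γ activated sequence TTCNNNGAA (7.66% of windows), to the core of the interferon-stimulated response element (3.57%) or to the AP-1 motif TGANTCA (7.71%) was in either IL32 window. The window of the second start held none of the 5. These matches describe letters in the reference and not bound sites.

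The summed FPKM was between 403354 and 468392 per library, and the lowest value above 0 was between 0.164 and 0.228 FPKM. Genes of mitochondrial DNA took 15.5% to 24.2% of the sum, with the highest share in normal replicate 2. The epithelial label was checked on 10 markers. KRT8 and KRT18 were at 100.1 to 383.3 FPKM, while the adhesion gene CDH1 was listed at 0 in 7 libraries and 4 of the 10 markers, VIL1 and CDX2 among them, were at 0 in all 8. The sum of the list was 641.0 and 652.0 FPKM in normal and 351.9 and 347.0 FPKM in inflamed hIECs, where KRT8 differed by -0.82 (limma adjusted p = 1.35e-05) and KRT18 by -0.99 (limma adjusted p = 2.14e-05). Nearly all of the sum was KRT8 and KRT18, which share exonic bases with each other, and the libraries held no strand information. EPCAM, CLDN4 and KRT19 were at or under 2.2 FPKM in all libraries. All 10 mesenchymal markers were measured, with a summed level of 2764.2 to 3647.2 FPKM against 287.0 to 652.0 FPKM for the epithelial list. Of 10 T and NK cell markers, 8 were at 0 in all libraries, CD3E and GNLY included, and all 10 were at 0 in the 4 libraries with cytokines. Of 10 monocyte and macrophage markers, 7 were at 0 in all libraries, CD14 and CSF1R included, and their sum was 1.49 to 4.99 FPKM. Of 9 endothelial markers, 5 were at 0 in all libraries, PECAM1 and CDH5 included, and their sum was 19.8 to 34.1 FPKM without and 5.43 to 9.70 FPKM with cytokines. EMCN took the largest part in normal hIECs, at 28.9 and 23.8 FPKM, and was at 6.45 and 6.15 FPKM in inflamed hIECs. With cytokines, 4 of the 10 mesenchymal markers were higher and 4 lower by limma at an adjusted p under 0.05, where 25.9% of all 14206 genes were higher and 30.3% lower. Of the endothelial markers, EMCN and ERG were in the fit and both were lower, at -1.9 and -0.51. Of the monocyte and macrophage markers, 1 was higher and 1 lower, with a median of -0.14. FCER1G, an immunoglobulin receptor subunit, was at 1.02 and 1.17 FPKM in normal and 3.59 and 3.67 FPKM in inflamed hIECs (limma adjusted p = 5.36e-05). AIF1, an actin-binding protein of macrophages, was at 2.84 and 2.74 FPKM in normal and 0 and 0.463 FPKM in inflamed hIECs (limma adjusted p = 0.000148). CD68, a lysosomal protein, was at 0.399 and 0.333 FPKM in inflamed hIECs and 1.11 and 1.83 FPKM with PM10 (limma adjusted p = 0.021). LUM, a collagen-binding proteoglycan of the mesenchymal list, was at 98.1 and 97.1 FPKM in inflamed hIECs and 140.5 and 139.2 FPKM with PM10, while 7 of the 10 mesenchymal markers were lower with PM10 there by the same test, against 9.02% of all genes. EMCN was also lower there, at -0.98. With PM10 in normal hIECs, EMCN was lower at -0.65, where 3.72% of all genes were lower. ERG passed the threshold in neither state. The part of other cell types in the IL32 level was not tested. In bulk RNA, more cells with IL32 and more IL32 mRNA per cell cannot be told apart.

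IL32 was weakly expressed without cytokines and among the most abundant transcripts with them. Normal hIECs had 1.91 and 1.51 FPKM, a mean of 1.71 ± 0.286 (SD, n = 2). Normal hIECs with PM10 had 1.79 and 2.22 FPKM, a mean of 2.00 ± 0.306 (SD, n = 2). These 4 values lay 7.1 to 11.7 times above the lowest value above 0 of their libraries, and the 2 groups overlapped. Inflamed hIECs had 568.0 and 568.7 FPKM, a mean of 568.3 ± 0.509 (SD, n = 2). Inflamed hIECs with PM10 had 793.4 and 796.7 FPKM, a mean of 795.0 ± 2.29 (SD, n = 2). The order of the group means was therefore normal, normal with PM10, inflamed and inflamed with PM10, in which the first pair of neighbours was not separated and each later step was larger than the spread between libraries.

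**Figure D1:**
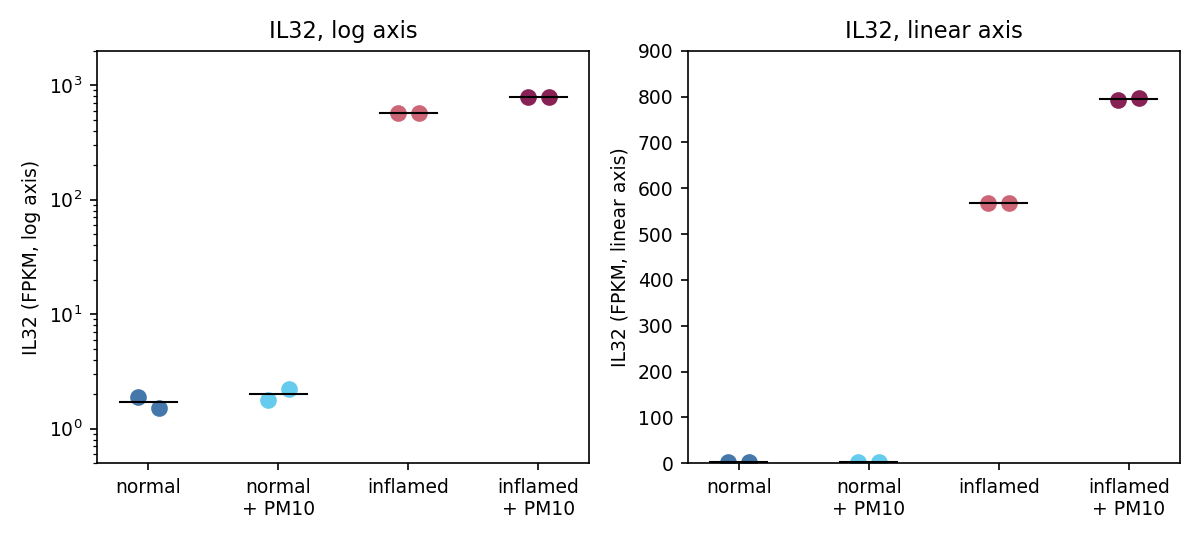
IL32 level in FPKM in each library (points, 2 per group) and the group mean (line), on a logarithmic axis at left and a linear axis at right. The normal libraries with and without PM10 lie between 1.51 and 2.22 FPKM, the inflamed libraries at 568.0 and 568.7 FPKM, and the inflamed libraries with PM10 at 793.4 and 796.7 FPKM.

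Among all genes of a library, ordered from the highest FPKM, IL32 stood at positions 11021 to 12096 in the 4 libraries without cytokines. It stood at 102 and 105 in inflamed hIECs and at 58 and 60 in inflamed hIECs with PM10. It took 0.136% of the summed FPKM in inflamed hIECs and 0.196% and 0.198% with PM10. In inflamed hIECs with PM10, 113 genes had a mean of at least 500 FPKM, and 3 of them, the chemokine genes CXCL10 and CCL7 and IL32, had been under 5 FPKM in both normal libraries. This count was chosen after the values were seen.

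The comparison of inflamed with normal hIECs without PM10 asks what the cytokines alone did. The ratio of the IL32 group means was 332.1, and the ratios of single libraries ran from 296.8 to 376.9. On the log2(FPKM + 1) scale, which understates the change of weakly expressed genes, the difference was 7.72 ± 0.089 (SE). By this difference IL32 held position 3 of 14206 genes, after CXCL10 at 9.03 and CXCL11 at 7.74 and before CXCL9 at 7.65. These 3 chemokine genes encode the ligands of CXCR3, which draws activated T cells into tissue. IL32 differed from CXCL11 and CXCL9 in this order by less than its own standard error. The place depends on the value added before the logarithm, since with 0.1 in place of 1 IL32 held position 9, with a difference of 8.30. With PM10 in both groups the ratio of means was 397.2, the ratios of libraries ran from 357.8 to 446.3, and the difference was 8.05 ± 0.089 (SE), again at position 3. The median of all 14206 genes was -0.028 without and -0.109 with PM10 in this comparison.

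The comparison of PM10 with none asks what the particles did in each state. In normal hIECs, IL32 was 1.17 times as high with PM10, with ratios of single libraries from 0.933 to 1.47. The difference was 0.15 ± 0.089 (SE), position 4255 of 14206 from the highest, and the libraries overlapped. In inflamed hIECs, IL32 was 1.40 times as high with PM10, and the groups did not overlap. The difference of 0.48 ± 0.089 (SE) put IL32 at position 324 of 14206 from the highest and, by size in either direction, at 983. The PM10 difference in inflamed minus that in normal hIECs was 0.34 ± 0.13 (SE) on the log2(FPKM + 1) scale, position 1001 of 14206, and the pair of normal libraries moved it from 0.23 to 0.44 as 1 or the other was left out. The rise with cytokines and the rise with PM10 in inflamed hIECs both use the inflamed libraries and are not independent.

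Among the genes with the 20 largest cytokine rises, IL32 held place 4 by its PM10 difference in inflamed hIECs. The chemokine gene CCL7 came first, with means of 224.9 and 544.3 FPKM without and with PM10 and a difference of 1.27. CCL5 followed at 0.85 and CXCL9 at 0.75, while CXCL10, which had the largest cytokine rise, was at -0.04. Of the 19 genes besides IL32, 12 were higher and 7 lower with PM10, with a range from -0.83 to 1.27 and a median of 0.15 against -0.006 over all genes. By limma with a Benjamini-Hochberg adjusted p under 0.05, which is what "called" means here, 6 of the 19 were called higher and 1 lower. The 6 were CXCL9, OR2I1P, CCL5, CCL7, MMP9, a matrix-degrading protease, and ICAM1, an adhesion molecule for leukocytes. The 1 lower was CA3, a carbonic anhydrase. Over all 14206 genes, 6.22% were called higher and 9.02% lower in this comparison. The 20 genes were chosen by values that include the inflamed libraries, so their shares are a description. Among the 30 genes with a cytokine difference of at least 4, 3 had a larger PM10 difference in inflamed hIECs than IL32, a count chosen after the values were seen.

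**Figure D2:**
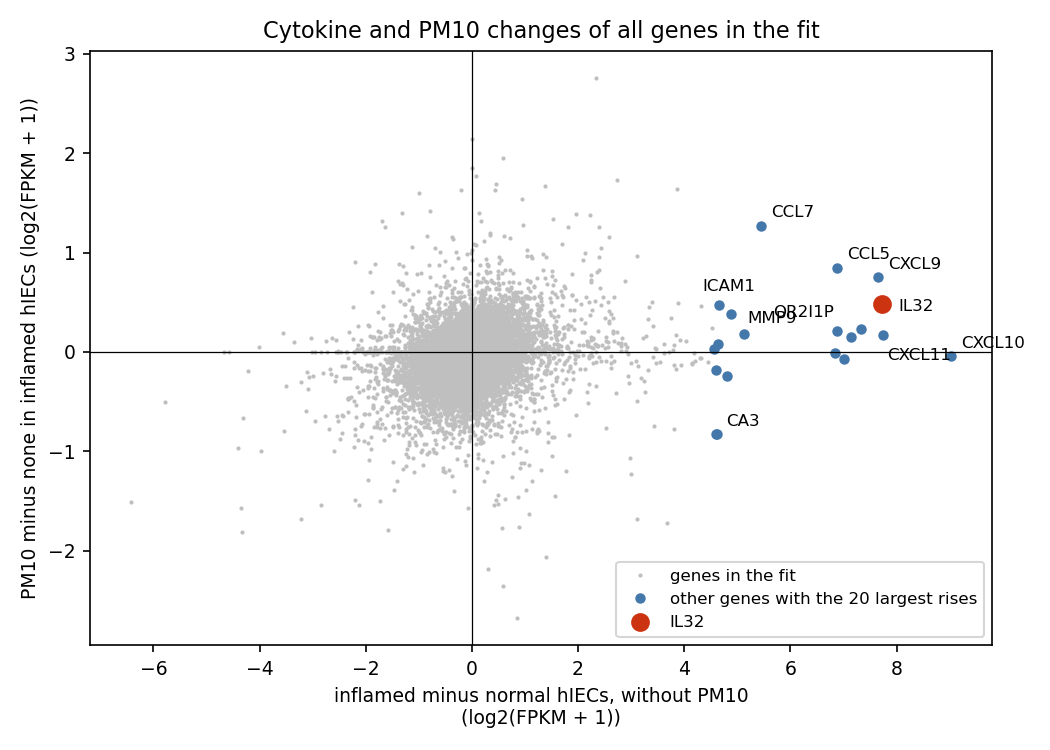
Each point is 1 of 14206 genes, with its difference between inflamed and normal hIECs on the horizontal axis and its difference between inflamed hIECs with and without PM10 on the vertical axis, both as log2(FPKM + 1). IL32 (red) lies at 7.72 and 0.48, below CCL7, CCL5 and CXCL9 on the vertical axis and above the other 16 of the 20 genes with the largest cytokine rises (blue).

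Profiles most like that of IL32 were sought among 12382 protein-coding genes by the root mean square difference over the 8 libraries. Before this, each gene's mean log2(FPKM + 1) over the 2 libraries of normal hIECs without PM10 was subtracted. The nearest 5 were CXCL9 at 0.19, CXCL11 at 0.20, OR2I1P at 0.39, CCL5 at 0.49 and UBD at 0.62. CXCL9 was at or under 0.219 FPKM without cytokines, at 220.8 and 221.6 FPKM in inflamed hIECs and at 373.1 and 373.5 FPKM with PM10. CXCL11 was at 0.352 to 0.525 FPKM without cytokines, at 316.0 and 311.8 FPKM in inflamed hIECs and at 351.0 and 357.4 FPKM with PM10. CCL5, a chemokine for T cells and monocytes, was listed at 0 without cytokines, and was at 121.8 and 112.4 FPKM in inflamed hIECs and 211.3 and 210.8 FPKM with PM10. In the normal libraries all 5 were at or under 0.525 FPKM, while IL32 was at 1.91 and 1.51. UBD, a ubiquitin-like modifier, and OR2I1P, an olfactory receptor gene, share exonic bases with each other and with GABBR1, and the libraries held no strand information, so their values are uncertain. With 4 of the 8 libraries high and 4 low, many genes have a like course over the libraries, and 289 of the 12382 had a Pearson correlation of at least 0.99 with IL32.

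IL32 was the interleukin gene with the highest level in inflamed hIECs. Of 39 interleukin ligand genes in the files, IL32 included, 28 were listed at 0 in all 8 libraries. Per length, as FPKM, IL32 made up 13.2% of the summed ligand level in normal hIECs and 16.5% when PM10 was added. Its share was 91.0% in the inflamed state and 95.1% in the inflamed state with PM10. It was 10.1 times the other ligands together in inflamed hIECs and 19.2 times when PM10 was present too. The level of the other ligands enters this ratio. In inflamed hIECs without and with PM10, mean IL6 was 23.8 and 6.48 FPKM, and mean IL11 was 3.76 and 7.74 FPKM. Ligands were taken by an IL symbol, so CXCL8 is not among them. In normal hIECs, IL34, a ligand of the CSF1 receptor, and IL11, a ligand of the gp130 family, had higher means than IL32, at 3.12 ± 0.111 and 2.89 ± 0.497 FPKM (SD, n = 2).

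**Figure D3:**
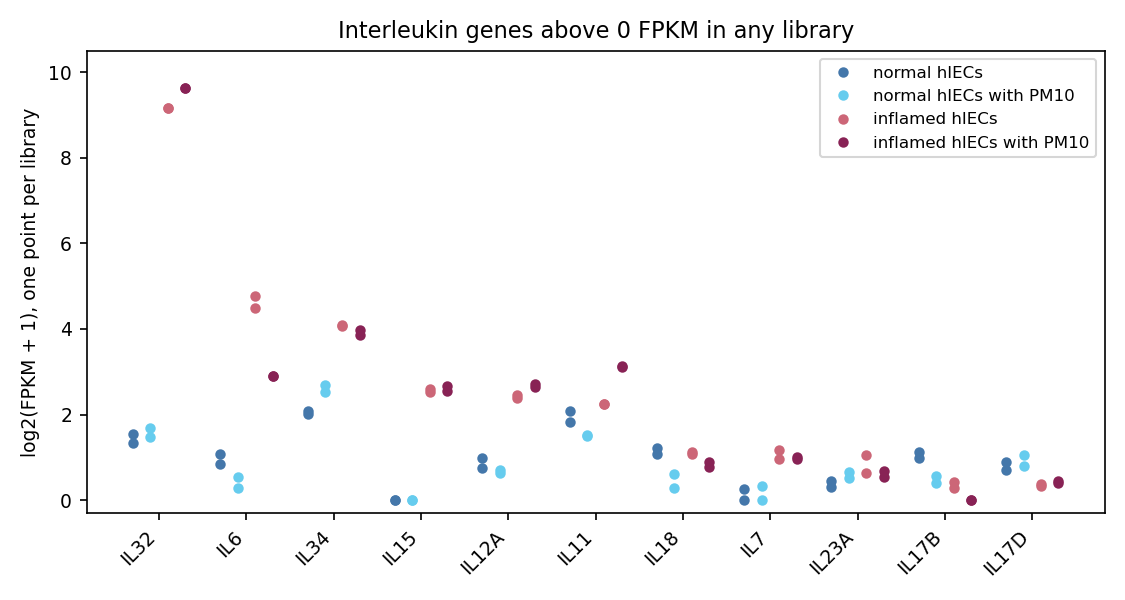
Level as log2(FPKM + 1) of the 11 interleukin ligand genes above 0 in any library, 1 point per library and 2 libraries per group. IL32 stands above 9 with cytokines, and no other gene reaches 5.

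Of 44 other genes with an interleukin-type symbol, 6 of them receptors, 31 were at 0 in all libraries and 8 entered the fit. With cytokines, 7 of the 8 were called higher and none lower, where 25.9% of all genes were called higher and 30.3% lower. Their median difference was 1.20. IL6, IL15 and IL12A entered the fit only through libraries with cytokines, which favoured a higher call. Of the members above 0 but outside the fit, IL17B and IL17D had lower means in inflamed than in normal hIECs. The means of IL7, IL23A and IL21R were higher there. IL6, a cytokine of the acute phase, was at 0.796 and 1.11 FPKM in normal hIECs and at 26.4 and 21.3 FPKM in inflamed hIECs, a difference of 3.67 ± 0.13 (SE, limma adjusted p = 7.53e-07). IL15, which sustains NK and memory T cells, was listed at 0 in all 4 libraries without cytokines and was at 4.77 and 5.04 FPKM in inflamed hIECs (limma adjusted p = 4.66e-07). IL12A, a subunit of IL-12 and IL-35, was at 0.673 and 0.979 FPKM before and 4.22 and 4.50 FPKM after. IL34 was at 3.04 and 3.20 FPKM before and 16 and 15.8 FPKM after. Smaller rises were called for IL4R at 0.81, IL7R at 0.83 and IL11 at 0.29. IL18, a partner of IL-12 in IFNγ induction, was not called, with a difference of -0.06. With PM10 in both groups, all 8 were called higher, against 25.8% of all genes higher and 39.6% lower.

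The interleukins went in both directions with PM10. In normal hIECs, IL34 was called higher by 0.56, and IL11, IL6, IL18 and IL7R were called lower, at -0.45, -0.55, -0.71 and -0.61. That was 1 of 8 higher and 4 of 8 lower, where 5.51% of all genes were called higher and 3.72% lower. Of these 5 calls, 3 were left without normal replicate 2, without normal hIECs with PM10 replicate 1 and without each library with cytokines, and 1, IL7R, without normal hIECs with PM10 replicate 2. The lower call of IL6 was lost without each of 7 libraries, all but normal replicate 1, and that of IL11 without each of 6, all but the normal pair. In inflamed hIECs, IL11 was at 3.76 and 3.75 FPKM without and 7.70 and 7.78 FPKM with PM10, a difference of 0.88 ± 0.092 (SE, limma adjusted p = 0.00165). IL7R was at 5.28 and 5.46 FPKM without and 8.28 and 7.97 FPKM with PM10. IL6 went from 26.4 and 21.3 FPKM to 6.45 and 6.51 FPKM, a difference of -1.72 ± 0.13 (SE, limma adjusted p = 0.000525). IL6 therefore fell with PM10 in the same inflamed libraries in which the IL32 level was higher. IL15, IL12A and IL34 were not called there, with differences of 0.05, 0.25 and -0.17.

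The genes of IFNγ and TNF signal transduction were all measured, and 12 of 19 were called higher and 1 lower with cytokines, with a median of 0.42, where 25.9% of all genes were called higher and 30.3% lower. IRF1, a transcription factor that IFNγ induces, was at 4.21 and 3.09 FPKM before and 81.2 and 81.3 FPKM after, a difference of 4.15 ± 0.11 (SE, limma adjusted p = 1.66e-07). These libraries did not overlap. NFKBIA, the inhibitor that NF-κB induces, was at 17 and 16.6 FPKM before and 69.9 and 79.7 FPKM after. The NF-κB subunit genes NFKB1, NFKB2 and RELB were called higher by 1.84, 1.32 and 1.68, while RELA was at 0.01 and not called. Among the receptors, TNFRSF1B was called higher by 0.67 and IFNGR2 lower at -0.26, and neither IFNGR1 at 0.14 nor TNFRSF1A at 0.02 was called. JAK2 was called higher by 0.71, and its partner kinase JAK1 was at -0.05 and not called. With PM10 in both groups, 12 were called higher and 2, TNFRSF1A and the kinase gene IKBKB, lower, against 25.8% and 39.6% of all genes.

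With PM10 fewer members of this list were called, and the calls rested on single libraries. In normal hIECs, 5 of 19 were called higher and none lower, against 5.51% and 3.72% of all genes. They included TNFRSF1A at 0.31, NFKB1 at 0.32, the kinase gene RIPK1 at 0.32 and IRF1 at 0.44. No call was left without either library of normal hIECs with PM10, TNFRSF1A alone was left without normal replicate 2 or without either library of inflamed hIECs with PM10, and TNFRSF1A and NFKB1 were left without either library of inflamed hIECs. In inflamed hIECs, where IL32 differed by 0.48, none of the 19 was called by limma, 5 had an unadjusted p under 0.05, 3 of these with a higher level, and the median difference was 0.03, with IKBKB at -0.22 and IFNGR2 at 0.22. Over all 14206 genes, 6.22% were called higher and 9.02% lower in that comparison. IRF1 was at 76.0 and 74.5 FPKM in inflamed hIECs with PM10 (limma adjusted p = 0.532). With either normal library left out, 4 of the 19 were called higher, NFKB2, IFNGR2 and JAK1 among them, and median centring gave 3 calls, NFKB2 and IFNGR2 among them. A p above the threshold does not show that a gene was at the same level. In the interaction of PM10 and cytokines, 1 of 19 was called lower, TNFRSF1A at -0.37 ± 0.072 (SE), and none higher (by an unadjusted p under 0.05, 1 was higher and 5 lower), where 2.11% of all genes were called higher and 4.48% lower. The call of TNFRSF1A was lost without each of 6 libraries, all but the normal pair.

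Of 10 genes reported to bind IL32 or to act with it, PRTN3, a neutrophil protease, and the integrin gene ITGB6 were at 0 in all libraries, the receptor gene NOD2 was at or under 0.337 FPKM, and 7 entered the fit. With cytokines, 5 of the 7 were called higher and none lower, against 25.9% and 30.3% of all genes. CASP1, which activates IL-1β and IL-18, was listed at 0 in both normal libraries and was at 8.99 and 10.2 FPKM in inflamed hIECs (limma adjusted p = 6.61e-07). It entered the fit only through the libraries with cytokines, which favoured this call. RIPK2, the kinase downstream of NOD1 and NOD2, was at 6.57 and 6.54 FPKM before and 22.5 and 21.4 FPKM after. The integrin subunits ITGAV and ITGB3 were called higher by 1.06 and 0.46, and PXN, a protein of focal adhesions, by 0.23. NOD1 and the focal adhesion kinase gene PTK2 were not called, at -0.13 and 0.12. With PM10 in both groups, 5 were called higher and NOD1 lower, against 25.8% and 39.6%. Over all 14206 genes, 6.22% were called higher and 9.02% lower with PM10 in inflamed hIECs, and 5.51% and 3.72% in normal hIECs. In the interaction the shares were 2.11% and 4.48%. With PM10 in inflamed hIECs, ITGB3 was the 1 member called, at 7.12 and 6.57 FPKM without and 9.21 and 9.97 FPKM with it. The difference was 0.43 ± 0.091 (SE, limma adjusted p = 0.0218). This call was lost without each of the 4 inflamed libraries, and with either normal library left out ITGAV and PXN were called higher as well. None of the 7 was called by limma with PM10 in normal hIECs, where 2 had an unadjusted p under 0.05, and without normal replicate 2 ITGAV was called lower and PXN higher. ITGB3 was also the 1 member called in the interaction, at 0.57 ± 0.13 (SE), a call that was kept only without normal replicate 2 among the 8 libraries left out in turn.

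The cytokines that IL32 is known to induce in other cells did not share 1 course. TNF and IL1B were listed at 0 in all 8 libraries. IL6, CXCL8, a neutrophil chemokine, and CXCL2, of the same family, were all called higher with cytokines, with and without PM10. Over all genes, 25.9% were called higher and 30.3% lower without PM10, and 25.8% and 39.6% with PM10 in both groups. IL6, CXCL8 and CXCL2 entered the fit only through libraries with cytokines, which favoured these calls. CXCL8 was listed at 0 in both normal libraries, was at 1.04 and 0.834 FPKM in inflamed hIECs and at 4.83 and 4.46 FPKM with PM10, a difference of 1.54 ± 0.12 (SE, limma adjusted p = 0.000585) between the last 2 groups. CXCL2 was at 1.93 and 2.18 FPKM in inflamed hIECs and 1.38 and 1.74 FPKM with PM10, and was not called. With PM10 in inflamed hIECs, then, CXCL8 was called higher, IL6 lower and CXCL2 neither, at levels far below the 793.4 and 796.7 FPKM of IL32. In that comparison 6.22% of all genes were called higher and 9.02% lower.

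**Figure D4:**
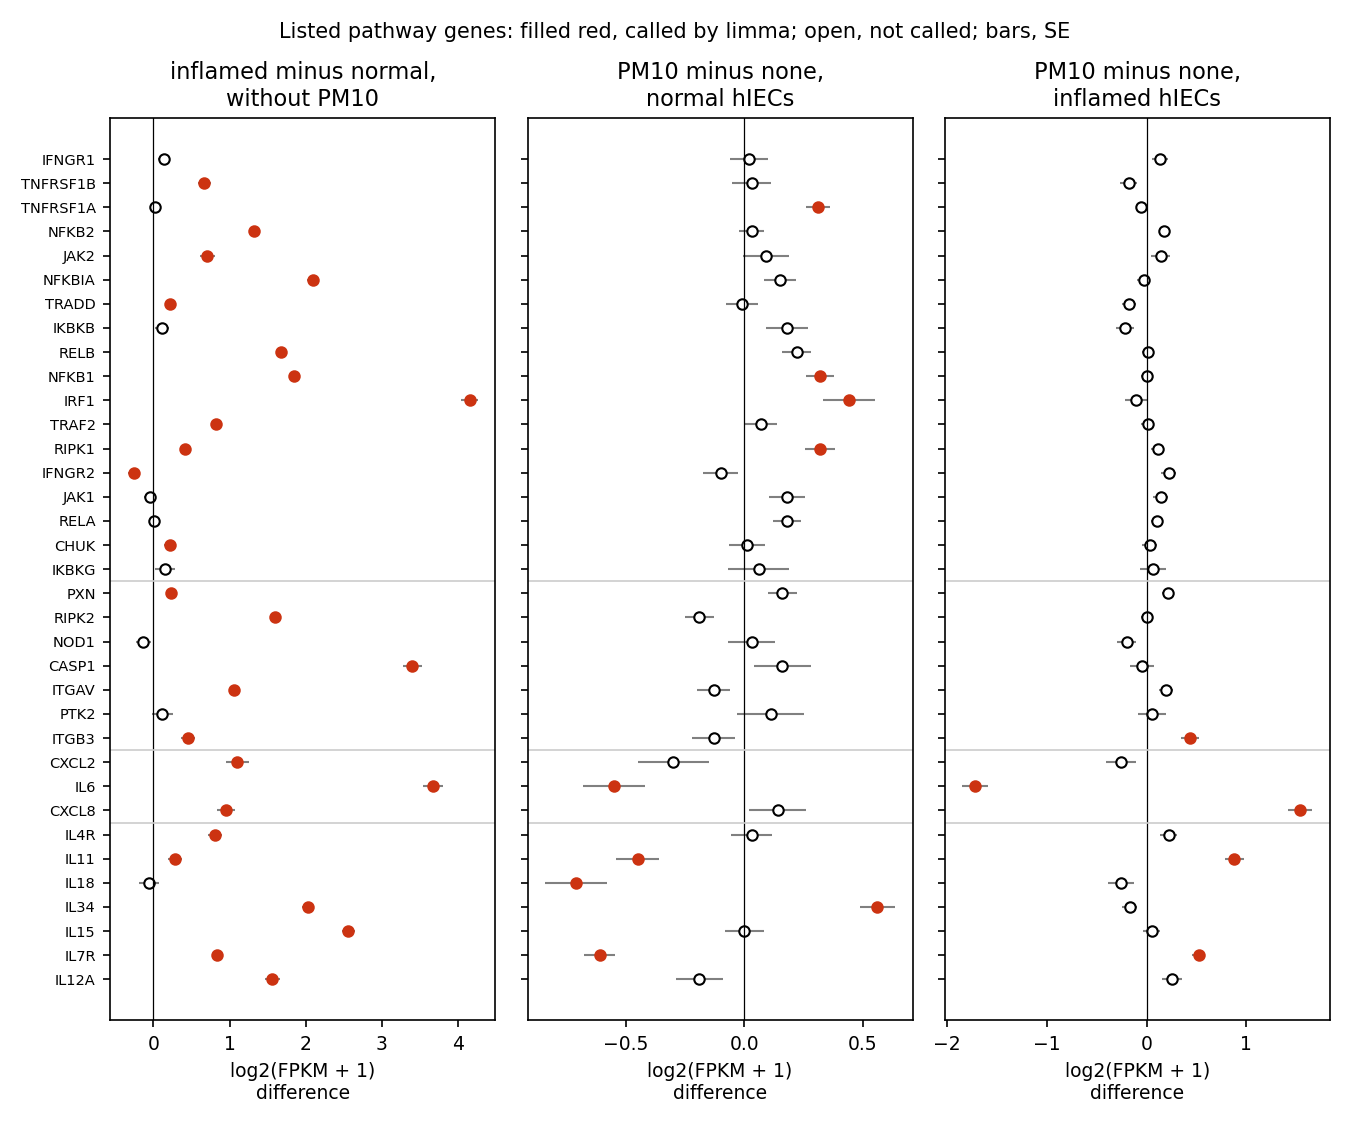
Differences in log2(FPKM + 1) of 35 of the 36 measured genes of the 4 lists, from top to bottom signal transduction, partners, induced cytokines and other interleukins, with the standard error as bars, for 3 comparisons with separate horizontal scales. Filled points are called by limma and open points are not. IRF1 at 4.15 and IL6 at 3.67 stand farthest right with cytokines, and IL6 at -1.72 and CXCL8 at 1.54 stand farthest apart with PM10 in inflamed hIECs.

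Over the 4 lists together, 27 of the 36 measured genes were called with cytokines without PM10, 26 of them higher. IL6, IL15, IL12A, CXCL8, CXCL2 and CASP1 entered the fit only through libraries with cytokines, which favoured a higher call. With PM10 in both groups 30 were called, 27 of them higher. Over all 14206 genes, 25.9% were called higher and 30.3% lower without PM10, and 25.8% and 39.6% with PM10 in both groups. With PM10, 10 of the 36 were called in normal hIECs, 6 of them higher, and 5 in inflamed hIECs, 4 of them higher. Over all genes, 5.51% were called higher and 3.72% lower in normal hIECs, and 6.22% and 9.02% in inflamed hIECs. In both directions together, the count of listed genes in inflamed hIECs was not above the share over all genes. The PM10 counts changed with the library left out, to between 1 and 11 in normal hIECs and between 4 and 11 in inflamed hIECs. Exons of 17 of the 36 overlap another gene, among them IRF1, IL6 and IL12A, and the reads of such a pair cannot be told apart without strand.

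The genes around IL32 did not show a rise of the size seen for IL32. Within 250 kb on either side, 27 protein-coding genes are annotated, 25 are in the files, 6 were at 0 in all libraries and 15 entered the fit. With cytokines, 3 were called higher and 3 lower, with a median of -0.04, and these counts were not above the 25.9% and 30.3% called over all genes. MMP25, the nearest gene upstream and a membrane-bound metalloproteinase, was at 2.31 and 2.61 FPKM in normal hIECs and at 5.86 and 5.89 FPKM in inflamed hIECs, a difference of 0.99. TNFRSF12A, the receptor of the TNF-like cytokine TWEAK, was at 71.5 and 68.0 FPKM before and 152.6 and 152.5 FPKM after, a difference of 1.12. The kinase gene PKMYT1 was the remaining one called higher, by 0.65, and FLYWCH2, THOC6 and ZNF213 were called lower, at -0.47, -0.31 and -0.60. The nearest gene downstream, ZSCAN10, was at 0 in all libraries. With PM10 in both groups, 4 were called higher and 9 lower, against 25.8% and 39.6% of all genes.

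With PM10 in inflamed hIECs, 1 of the 15 neighbours was called higher and 1 lower, with a median of -0.16, against 6.22% and 9.02% of all genes. CLDN6, an embryonic claudin gene, was at 1.04 and 1.21 FPKM without and 3.29 and 2.87 FPKM with PM10, a difference of 0.94. THOC6, of the mRNA export complex, was called lower at -0.39, a call that was lost without replicate 2 of either inflamed group. CLDN6 shares exonic bases with TNFRSF12A, which was at 169.9 and 165.2 FPKM in those libraries, so its low level is uncertain. THOC6, at 8.09 to 17.1 FPKM over the libraries, shares exonic bases with HCFC1R1, at 133.3 to 171.3 FPKM. The level of THOC6 is therefore uncertain too. Exons of 14 of the 15 measured neighbours overlap another gene. Over all genes, 5.51% were called higher and 3.72% lower with PM10 in normal hIECs, and 2.11% and 4.48% in the interaction. In normal hIECs, 2 were called higher and 2 lower with PM10, and none was left without either library of normal hIECs with PM10. In the interaction, 1 was called higher and 2 lower, and THOC6 alone was left without each library with cytokines and without normal hIECs with PM10 replicate 1.

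**Figure D5:**
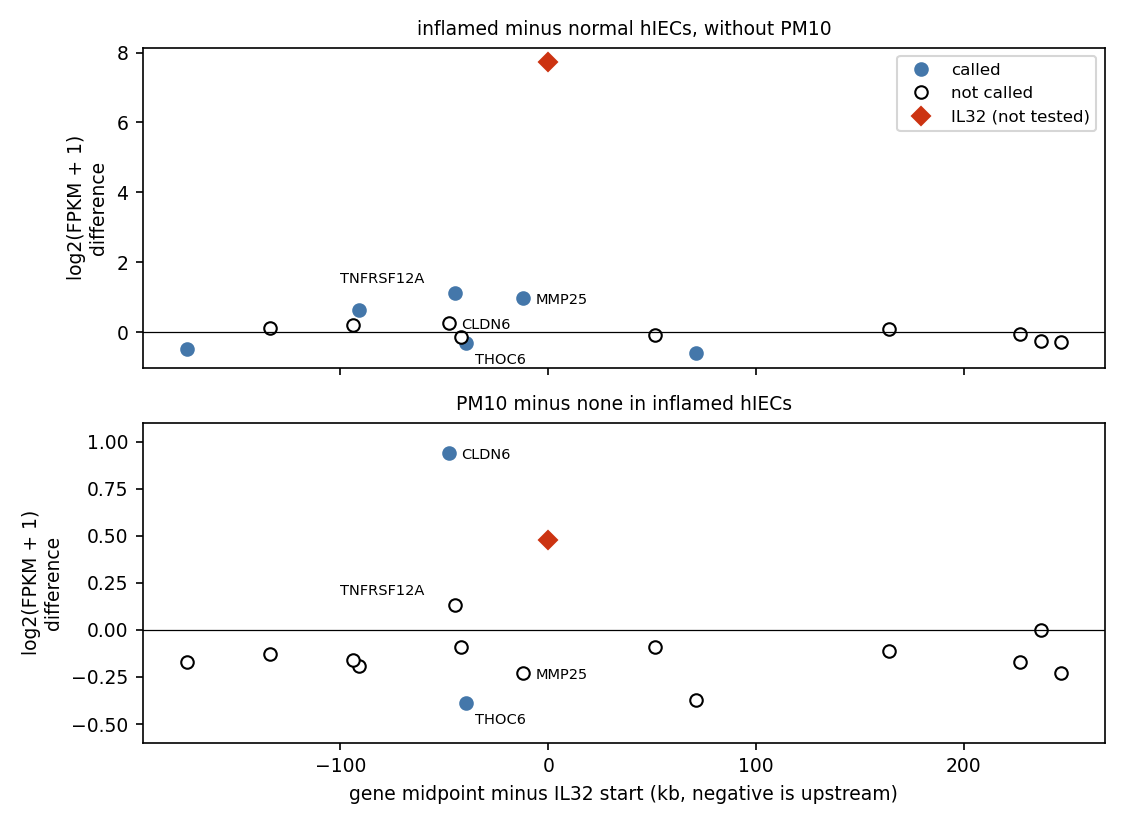
Difference in log2(FPKM + 1) of the 15 measured neighbours within 250 kb and of IL32 (red diamond), against the distance of each gene's midpoint from the start of IL32 in kb, for cytokines without PM10 (top) and for PM10 in inflamed hIECs (bottom). IL32 at 7.72 stands far above the neighbours in the upper panel, whose highest is TNFRSF12A at 1.12, while CLDN6 at 0.94 lies above IL32 at 0.48 in the lower panel.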

How the data were processed

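RNA of H9-derived 2D hIECs was measured in 8 poly-A selected libraries without strand information, 2 for each of 4 groups, grouped by the sample labels. The authors trimmed reads with Cutadapt, aligned them to hg38 with HISAT2 and estimated expression with StringTie, per the labels; the values they deposited are FPKM, 1 per gene and library. No read counts were used, so the depth is unknown and no counting interval is given. Values were compared as log2(FPKM + 1). limma 3.58.1 (R 4.3.3, trend of variance on mean) was run once, on the 14206 genes that reached 1 FPKM in 2 or more of the 8 libraries and with all 4 groups in the model, with Benjamini-Hochberg adjustment within each of 5 comparisons and a threshold of 0.05. The standard errors of IL32 come from this fit. Tested on simulated data for inflamed against normal hIECs over 14206 genes, it called 189 of 200 changed genes.

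IL32 and the lists were chosen with earlier results of these data known. Named genes are called members of the lists and members at 0, protein-coding genes within 250 kb of IL32, the 5 of nearest profile, the neighbours of IL32 in the order of changes and the 20 largest cytokine rises. Of the gene identifiers, 99.5% matched GENCODE release 44. Promoter sequences are from RefSeq (GRCh38.p14). Alternatives covered the pseudocount (0.1), the filter, median centring, quantile normalization, the trend, the replicate number as a block, the measure of likeness and each library left out. The inflamed state was made with both cytokines at once, and the shares of IFNγ and TNFα cannot be told apart. A gene of the signal transduction list stays in its counts but is otherwise not reported here. Plots were made with Python 3.11.15 and matplotlib 3.10.9.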

Additional observations from a re-analysis of the deposited data

Results flagged for a closer look

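Among the 36 listed genes and 15 neighbours of IL32 in the fit, 10 were called by the limma interaction term. On the log2(FPKM + 1) scale, these genes differed in their PM10 response between normal and inflamed hIECs. Over all 14206 genes, 2.11% were called higher and 4.48% lower by this term. The interaction, on the log2(FPKM + 1) scale and as the PM10 difference in inflamed hIECs minus that in normal hIECs, was positive for CXCL8 at 1.41, IL11 at 1.33, IL7R at 1.13, CLDN6 at 0.83 and ITGB3 at 0.57. It was negative for IL6 at -1.17, IL34 at -0.74, THOC6 at -0.61, ZNF263 at -0.52 and TNFRSF1A at -0.37. IL11 and IL7R were called lower with PM10 in normal hIECs and higher in inflamed hIECs, so the directions were opposite, but the lower call of IL11 in normal hIECs was lost without each of 6 libraries, all but the normal pair without PM10. IL6 was lower with PM10 in both states, with the larger difference on this scale in inflamed hIECs. Its means went from 0.951 to 0.332 FPKM in normal and from 23.8 to 6.48 FPKM in inflamed hIECs. The scale understates the change of weakly expressed genes, and the interaction call of IL6 was lost with the smaller pseudocount. Its lower call in normal hIECs was lost under 11 of the 14 alternatives. The calls of ITGB3, TNFRSF1A, IL6, IL34, CXCL8, CLDN6 and ZNF263 were lost under at least 1 alternative. IL32 itself, with an interaction of 0.34, was not tested.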

How the results depend on the processing

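IL32 kept its direction in all 5 comparisons under all 14 alternatives. The filter, the trend and the replicate block cannot move its difference, nor can a library outside the groups compared. For these alternatives the outcome was fixed in advance. With a pseudocount of 0.1, its cytokine difference was 8.30 without and 8.57 with PM10, and with quantile normalization 7.85 and 8.29. With single libraries left out, the cytokine difference without PM10 ran from 7.61 to 7.83, that of PM10 in normal hIECs from 0.04 to 0.25 and the interaction from 0.23 to 0.44. Normal replicates 1 and 2 gave both ends of the first. The pooled SD of IL32 between libraries of a group was 0.106 on this scale, against a PM10 difference of 0.15 in normal hIECs, where the libraries overlapped. By Pearson correlation in place of the root mean square difference, 1 of the 5 genes of nearest profile was shared.

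The counts of called genes rest on few libraries. Leaving out 1 library, which assumes that the lone library left varies like the other groups, moved all calls with PM10 from 1311 to between 194 and 2627 in normal hIECs, from 2165 to between 675 and 2992 in inflamed hIECs, and from 937 to between 263 and 1266 in the interaction. For the listed genes, the calls were between 1 and 11 in normal hIECs, between 4 and 11 in inflamed hIECs and between 3 and 9 in the interaction. Median centring gave 8 listed genes with PM10 in inflamed hIECs, and a pseudocount of 0.1 gave 4 in the interaction. The share called higher fell from 59.7% to 42.9% with median centring for PM10 in normal hIECs, and rose from 40.8% to 50.8% with quantile normalization for PM10 in inflamed hIECs and from 32.0% to 46.6% in the interaction. Of 79 calls of single listed genes, 26 were lost under at least 1 alternative and none changed direction. Samples of different groups share only a replicate number. Over genes, the differences of replicate 1 minus replicate 2 had correlations from -0.00151 to 0.0793 between any pair of groups. A fit with the replicate number as a block called 7957 genes with cytokines and 762 in the interaction. With PM10 it called 1051 in normal and 1966 in inflamed hIECs.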
